A study of Homo sapiens with 18 samples.

Results

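The tissue factor and plasminogen genes are 9 genes of blood clotting and clot breakdown: F3, TFPI, TFPI2, THBD, PROCR and F2RL1 on the clotting side, and PLAU, PLAUR and PLAT on the plasminogen side. They were taken by symbol, from the probes that the platform annotation assigns to them in the table of unnormalized intensities. Of the 9 genes, 8 had a probe, with 13 probes in all, and 7 passed a filter that required detection on at least 3 of 18 arrays, out of 11600 genes that passed it. TFPI2 was read but failed the filter, and F2RL1, the receptor PAR2, is not analysed here. Total RNA came from 6 established human pancreatic cancer lines, hybridised to Illumina HT-12 v4 bead arrays with 3 arrays per line. By their labels, MiaPaCa2, Panc1 and SU8686 resist dasatinib, a drug that blocks SRC and ABL kinases, and Panc0403, Panc0504 and Panc1005 are sensitive to it. They name no drug treatment, passage or genotype, so each response was represented by 3 lines, each of them a single line. The array codes put Panc0403 and Panc0504 on slide 1, Panc1005 and SU8686 on slide 2, and MiaPaCa2 and Panc1 on slide 3, so slide 2 alone held both responses.

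Tissue factor, encoded by F3, is a membrane protein that binds factor VII and starts the clotting cascade, and pancreatic cancers are known both for high tissue factor and for venous thrombosis. Tissue factor pathway inhibitor, the product of TFPI, shuts that step down, while thrombomodulin (THBD) and the endothelial protein C receptor (PROCR) turn thrombin towards the anticoagulant protein C. On the other side, urokinase (PLAU), held at the cell surface by its receptor (PLAUR), and tissue plasminogen activator (PLAT) cut plasminogen to plasmin, which dissolves fibrin and helps cells cross matrix.

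Replicate 2 stood apart in every line. Replicates 1 and 3 of a line correlated at 0.994 to 0.996 over all tested genes, whereas replicate 2 correlated with its own line at 0.851 to 0.897. The array nearest to each replicate 2 was replicate 2 of the other line on its slide, at 0.99 on slide 1, 0.915 on slide 2 and 0.991 on slide 3. At a detection p under 0.01, each array detected 31% to 35% of its probes, and median intensities ran from 110.4 to 135.2. Levels below are normalized log2 intensities of replicates 1 and 3 unless replicate 2 is named. A difference in bulk RNA cannot tell fewer expressing cells from less RNA per cell.

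F3 was bright in 4 lines and off in the other 2. Its probe (ILMN_1797009, gene at 94529173 to 94541759 on chromosome 1, GRCh38.p14) was detected on 8 of 12 arrays of replicates 1 and 3. Levels on replicates 1 and 3 were 11.99 and 12 in Panc1005, 10.93 and 11.12 in SU8686, 10.76 and 10.61 in Panc0504, and 10.10 and 10.44 in Panc0403. In MiaPaCa2 they were 5.48 and 5.36, and in Panc1 5.37 and 5.82, with no detection on any of these arrays. The lines with tissue factor RNA therefore included all 3 sensitive lines and the resistant SU8686, and their levels did not overlap those of MiaPaCa2 and Panc1. Against the lowest detected signal of each array, F3 was at least 61.8-fold higher in Panc1005 than in MiaPaCa2, at least 31.4-fold higher in SU8686, at least 24.8-fold higher in Panc0504 and at least 18.6-fold higher in Panc0403. The corresponding bounds against Panc1 were 60.3, 30.7, 24.2 and 18.2. A second F3 probe (ILMN_2129572) was detected on the same 8 arrays.

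**Figure D1:**
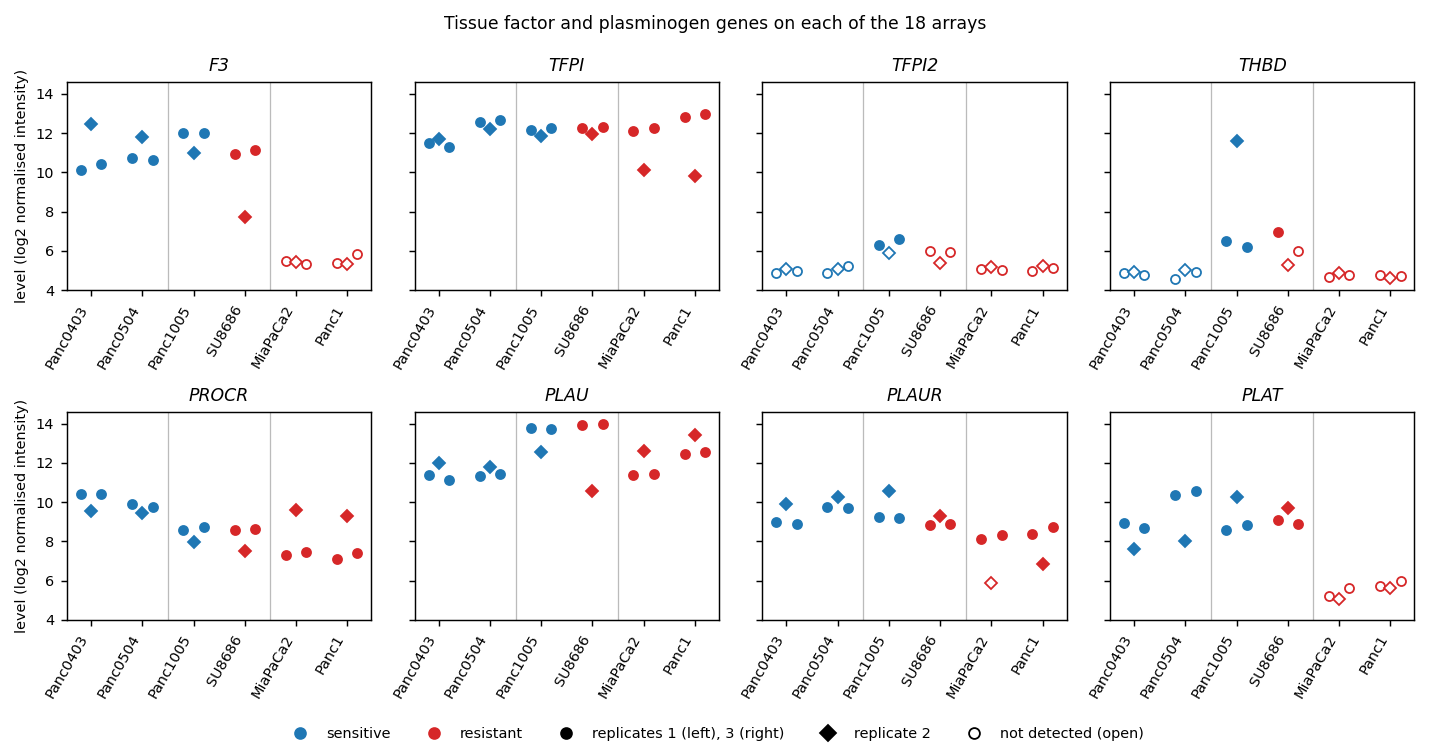
Level of each measured gene (log2 normalized intensity, vertical axis) on each of the 18 arrays, by labelled line; circles are replicates 1 and 3, diamonds replicate 2, and open symbols arrays without detection. F3 and PLAT are open on all 6 arrays of MiaPaCa2 and Panc1, and THBD has a single array above 7, replicate 2 of Panc1005 at 11.61.

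The sequences around the start sites of F3, PLAU and PLAUR are shown because these are the gene that starts clotting, the member with the largest fall on replicate 2 and its receptor, and each has a RefSeq promoter record (GRCh38.p14). Each runs from 250 bases before to 50 bases after the annotated start and is printed 5′ to 3′ on the gene's strand. Capitals mark matches on either strand to the AP-1 motif TGANTCA or the GC box GGGCGG, which do not overlap each other here. The F3 window lies at chr1:94541710-94542009 on the minus strand. The PLAU window, at 1 of its annotated starts, lies at chr10:73910882-73911181 on the plus strand. The PLAUR window lies at chr19:43670120-43670419 on the minus strand.
F3: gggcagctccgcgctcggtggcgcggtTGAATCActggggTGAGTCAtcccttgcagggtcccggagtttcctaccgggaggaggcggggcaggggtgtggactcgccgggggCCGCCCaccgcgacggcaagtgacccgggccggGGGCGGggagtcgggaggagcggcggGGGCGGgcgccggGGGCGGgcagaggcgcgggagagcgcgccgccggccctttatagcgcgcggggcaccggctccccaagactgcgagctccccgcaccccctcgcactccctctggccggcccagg
PLAU: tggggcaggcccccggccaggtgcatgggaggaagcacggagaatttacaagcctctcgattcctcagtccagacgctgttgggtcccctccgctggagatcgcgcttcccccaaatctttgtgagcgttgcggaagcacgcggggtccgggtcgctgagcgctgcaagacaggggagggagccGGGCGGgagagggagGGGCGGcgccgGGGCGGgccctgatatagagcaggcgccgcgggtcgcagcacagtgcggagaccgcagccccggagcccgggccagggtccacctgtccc
PLAUR: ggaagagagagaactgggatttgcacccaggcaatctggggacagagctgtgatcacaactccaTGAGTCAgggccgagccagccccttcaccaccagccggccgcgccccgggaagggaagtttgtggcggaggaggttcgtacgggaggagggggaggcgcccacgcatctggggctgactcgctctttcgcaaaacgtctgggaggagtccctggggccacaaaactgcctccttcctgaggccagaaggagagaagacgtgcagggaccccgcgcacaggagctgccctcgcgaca
The F3 window held 2 AP-1 matches, which began at -223 and -210 from the start, and 4 GC boxes. The PLAUR window held 1 AP-1 match, at -186, and the PLAU window 3 GC boxes. A window at another annotated PLAU start, chr10:73910360-73910659, is not shown and held neither motif. Of 35116 promoter windows of this length, 7.71% held the AP-1 motif and 45.0% the GC box. These are letter matches, and no binding was measured.

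TFPI, the inhibitor of the tissue factor step, was bright in every line. Its probe (ILMN_1707124, gene at 187464230 to 187554435 on chromosome 2) was detected on 12 of 12 arrays. Levels on replicates 1 and 3 were 12.84 and 12.98 in Panc1, 12.58 and 12.66 in Panc0504, 12.24 and 12.34 in SU8686, 12.14 and 12.24 in Panc1005, 12.10 and 12.24 in MiaPaCa2, and 11.48 and 11.30 in Panc0403. MiaPaCa2 and Panc1 thus held inhibitor RNA without detected tissue factor RNA. The line means spanned 1.52. Panc0403 was lowest, 0.78 below its next neighbour MiaPaCa2 (adjusted p = 6.69e-05, limma), while neither the gap from SU8686 to Panc1005 nor that from Panc1005 to MiaPaCa2 passed (adjusted p = 0.402 and 0.896). A second probe of the same transcript (ILMN_1662619) gave a like pattern. Another probe (ILMN_1701032), which the annotation assigns to the transcript of the membrane-anchored beta form, was detected on 10 of 12 arrays. It was undetected in Panc0403 at a mean of 5.27 and read 7.74 in Panc1005, 7.51 in SU8686, 7.43 in Panc1, 6.68 in Panc0504 and 6.20 in MiaPaCa2.

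TFPI2, a related inhibitor of plasmin and other proteases, was near background throughout. Its probe (ILMN_2068104, gene at 93885396 to 93890753 on chromosome 7) was detected on 2 arrays, replicates 1 and 3 of Panc1005, at 6.28 and 6.59. Undetected arrays of SU8686 read 5.99 and 5.96, and the 4 other lines had means from 4.92 to 5.06. Without a detection filter, TFPI2 was called in 5 of 15 line pairs, 4 of them with Panc1005 as the higher line and 1 with SU8686 above Panc0403. Over all genes, that fit called 43605 comparisons, from 15 pairs of 20046 genes. The lower line was undetected in each TFPI2 call, and SU8686 was undetected too, so these sizes rest on background readings.

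THBD, the thrombomodulin gene, was likewise dim in replicates 1 and 3. Its probe (ILMN_1759787, gene at 23045633 to 23049672 on chromosome 20) was detected on 3 of these 12 arrays. Panc1005 read 6.52 and 6.22, both detected, and SU8686 read 6.96, detected, and 6.02, not detected. The 8 arrays of the remaining lines ran from 4.59 to 4.94, none of them detected. Both lines of slide 2 therefore carried the only detected THBD, and they did not pass as different from each other (0.12 higher in SU8686, adjusted p = 0.708, limma). Against the detection limit, THBD in Panc1005 was at least 1.25-fold higher than in MiaPaCa2 and at least 1.22-fold higher than in Panc1.

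PROCR was detected everywhere and on replicates 1 and 3 fell into 3 steps that followed the slides. Its probe (ILMN_1717262, gene at 35171096 to 35216259 on chromosome 20) read 10.39 and 10.43 in Panc0403 and 9.89 and 9.76 in Panc0504. It read 8.56 and 8.71 in Panc1005 and 8.56 and 8.62 in SU8686, followed by 7.31 and 7.45 in MiaPaCa2 and 7.11 and 7.40 in Panc1. On these replicates no level of one slide overlapped a level of another, and how many of all genes separate by slide in this way was not counted. The gap from Panc0504 to Panc1005 was 1.19 (adjusted p = 7.15e-06, limma) and that from SU8686 to MiaPaCa2 was 1.21 (adjusted p = 6.31e-06). Within slides 2 and 3 the neighbours did not pass as different (adjusted p = 0.766 and 0.354), whereas Panc0403 exceeded Panc0504 by 0.59 (adjusted p = 0.00108). The steps were not kept on replicate 2, where PROCR read 9.6 in Panc0403 and 9.4 in Panc0504, 8.0 in Panc1005 and 7.5 in SU8686, and 9.6 in MiaPaCa2 and 9.3 in Panc1. Line and slide cannot be told apart in this design.

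Urokinase RNA was high in all 6 lines and highest on slide 2. The PLAU probe (ILMN_1656057, gene at 73908832 to 73917494 on chromosome 10) read 13.91 and 13.99 in SU8686. Panc1005 followed with 13.77 and 13.72, then Panc1 with 12.46 and 12.57. The other lines were close together, with 11.39 and 11.41 in MiaPaCa2, 11.34 and 11.43 in Panc0504 and 11.37 and 11.11 in Panc0403. SU8686 and Panc1005 did not pass as different (0.21, adjusted p = 0.097, limma), and neither did MiaPaCa2 and Panc0504 (adjusted p = 0.894) or Panc0504 and Panc0403 (adjusted p = 0.226). Panc1 lay 1.23 below Panc1005 (adjusted p = 2.3e-06) and 1.11 above MiaPaCa2 (adjusted p = 5.01e-06). The top 2 and bottom 3 lines each held both responses.

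The urokinase receptor was detected in all lines, with a spread that depended on the probe. The PLAUR probe used (ILMN_2374340, gene at 43646095 to 43670169 on chromosome 19) read 9.73 and 9.70 in Panc0504, 9.23 and 9.19 in Panc1005, 9 and 8.88 in Panc0403 and 8.83 and 8.91 in SU8686. It read 8.37 and 8.72 in Panc1 and 8.14 and 8.34 in MiaPaCa2, the lowest line. Line means of this probe spanned 1.48, and the other probes differed in size: a second probe of the same transcript (ILMN_1691508) fell further, from 9.32 in Panc0504 to 6.90 in Panc1 and 6.28 in MiaPaCa2, and a further probe (ILMN_2408543) from 8.58 to 7.13 and 6.89. All 3 probes put Panc0504 first, Panc1005 next, and Panc1 and MiaPaCa2 last. At a difference of at least 1, the used probe gave 2 called line pairs of 15, ILMN_1691508 9 and ILMN_2408543 4.

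Tissue plasminogen activator showed the on and off pattern of F3 again. The PLAT probe (ILMN_1738742, gene at 42174718 to 42207565 on chromosome 8) was detected on 8 of 12 arrays. It read 10.34 and 10.55 in Panc0504, 9.09 and 8.89 in SU8686, 8.94 and 8.67 in Panc0403 and 8.60 and 8.82 in Panc1005. In MiaPaCa2 and Panc1 no array detected it, at line means of 5.43 and 5.86. Panc0504 lay 1.45 above SU8686 (adjusted p = 2.73e-05, limma), and neither the gap from SU8686 to Panc0403 nor that from Panc0403 to Panc1005 passed (adjusted p = 0.352 and 0.652). PLAT was at least 21-fold higher in Panc0504 than in MiaPaCa2 and at least 20.5-fold higher than in Panc1, and for the other 3 lines the bounds ran from 6.18-fold (Panc1005 over Panc1) to 7.67-fold (SU8686 over MiaPaCa2). Unlike PLAT, PLAU stayed bright in MiaPaCa2 and Panc1, so these lines held RNA of 1 of the 2 activators at a detected level.

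Across the 15 pairs of lines, 56 of 105 member comparisons (53.3%) passed an adjusted p under 0.05 with a log2 difference of at least 1, in a limma fit to the 12 arrays of replicates 1 and 3 adjusted over all genes and pairs. The share over all tested genes was 24.8%. PROCR passed in 12 pairs, PLAU and PLAT in 11, F3 in 10, THBD in 8, and TFPI and PLAUR in 2 each. THBD passed the detection filter only through arrays of Panc1005 and SU8686. All 8 of its calls set 1 of these lines against a line without detection. As bounds those differences were only 1.2-fold to 1.36-fold, below the size for a call. With all 3 replicates in the fit the count was 24, and the share over all genes 9.32%. Replicates are described as biological triplicates with no more detail, so these p-values measure the spread between arrays of a line, which may be partly technical.

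Lines that share a slide were also compared. With 1 probe per gene, none of the 7 members was called between Panc1005 and SU8686, the pair of unlike response, where 4.84% of all genes were. At an adjusted p under 0.05 of any size, 2 of 7, F3 and PLAUR, were lower in SU8686 by limma, with 42.3% of all genes passing; the same 2 had an unadjusted p under 0.05. F3 was 0.97 ± 0.16 (SE) lower in SU8686 (adjusted p = 0.00036), or 1.96-fold, just under the size required for a call. The second F3 probe was 1.38 lower in SU8686 and passed as a call (adjusted p = 3.97e-05, limma on single probes), so the absence of an F3 call there depends on the probe. Between Panc0403 and Panc0504, 2 members were called, against 7.41% of all genes: PLAT (3.11-fold) and TFPI (2.34-fold), both higher in Panc0504. Between MiaPaCa2 and Panc1, with 1 probe per gene, PLAU alone was called, 2.16-fold higher in Panc1, against 2.71% of all genes. The TFPI probe ILMN_1701032 was also called there, 1.23 higher in Panc1 (adjusted p = 2.11e-06, limma on single probes). At any size, 5 of 7 members passed the adjusted p between Panc0403 and Panc0504 (45.6% of all genes) and 4 of 7 between MiaPaCa2 and Panc1 (34.6% of all genes).

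F3, PROCR and PLAT were each called lower in both MiaPaCa2 and Panc1 than in every one of the 4 other lines. With 1 probe per gene this makes 3 of 7 members, with 5.51% of all genes lower in this way, and 0 of 7 were higher, with 5.19% of all genes higher. The count depends on the probe. PLAUR also met the rule with ILMN_1691508, by 1.13 (SU8686 over Panc1) to 3.04 (Panc0504 over MiaPaCa2), but not with its other probes. The rule was written after the levels had been seen. Epithelial markers moved with it. Of 6 such markers, 3 to 6 were detected on resistant arrays of replicates 1 and 3, at summed normalized intensities of 5146 to 68655, and all 6 on sensitive arrays, at 50192 to 78600. EPCAM, CDH1 and KRT7 were undetected on replicates 1 and 3 of MiaPaCa2 and Panc1, where EPCAM read 4.87 to 5.37 against 13.60 to 14.23 on these replicates of the other 4 lines. On the same arrays COL1A2, a collagen gene usually taken as a fibroblast marker, read 12.95 to 13.74, against 5.05 to 5.64 on slide 1 and 8.97 to 10.33 on slide 2. COL3A1 was likewise higher there, at 11.03 to 11.14. COL1A1, also a fibroblast marker, went the other way, at 5.1 to 5.5 against 5.8 to 6.8 on replicates 1 and 3 of the other 4 lines. Of 7 fibroblast markers, 2 to 3 were detected on resistant arrays of replicates 1 and 3, at summed normalized intensities of 1501 to 16178, and 0 to 1 on sensitive arrays, at 287 to 807, with LUM, PDGFRB and FAP detected on none of them. The part of these markers in the result was not tested.

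The comparison of the responses put 3 resistant against 3 sensitive lines, with the mean of replicates 1 and 3 as the value of a line. By limma, 0 of 7 members passed an adjusted p under 0.05, and neither did any other gene (0% of all genes). At an unadjusted p under 0.05, 2 of 7 members passed, PROCR and PLAT, with 15.5% of all genes. Tested as single probes by limma, the other PLAUR probes (differences of -1.81 and -0.90) and the second F3 probe (-2.20) also had an unadjusted p under 0.05, each at an adjusted p of 0.32. The difference, resistant minus sensitive, was -3.64 ± 1.53 (SE, n = 3 lines each) for F3, -2.56 ± 1.02 for PLAT, -1.88 ± 0.57 for PROCR and -0.73 ± 0.31 for PLAUR, all 4 at an adjusted p of 0.316 by limma. F3 and PLAT were undetected in 2 of the 3 resistant lines, so their sizes depend on the background level. It was 0.50 ± 0.90 for PLAU (adjusted p = 0.787), 0.39 ± 0.39 for TFPI (adjusted p = 0.611) and -0.01 ± 0.66 for THBD (adjusted p = 0.997). The median over the members was -0.73 and over all genes 0.04. All 3 resistant line means lay below all 3 sensitive ones in 2 of 7 members, PROCR and PLAUR, with 8.02% of all genes. The gaps were narrow, 0.04 between SU8686 and Panc1005 in PROCR and 0.07 between SU8686 and Panc0403 in PLAUR. With the PLAUR probe ILMN_2408543, SU8686 (7.78) lay above Panc0403 (7.75).

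**Figure D2:**
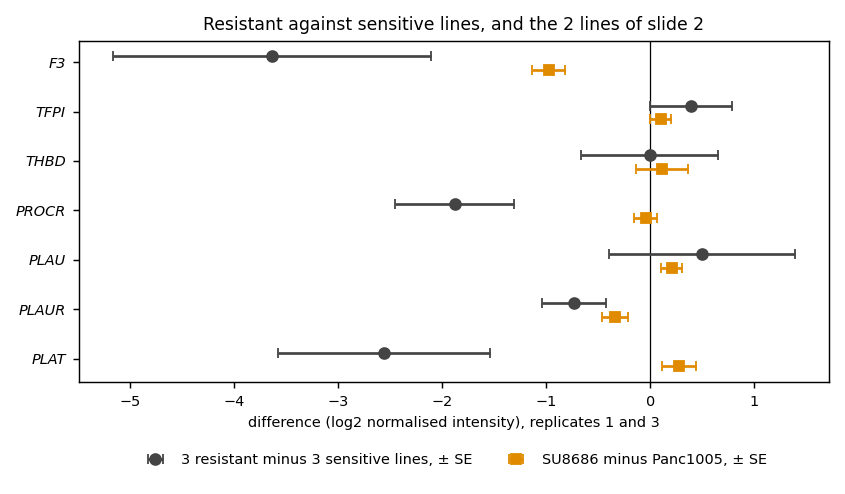
Difference in log2 normalized intensity of replicates 1 and 3 (horizontal axis) for each tested gene; grey circles are the 3 resistant minus the 3 sensitive lines and orange squares SU8686 minus Panc1005, the 2 lines of slide 2, each with its SE. F3 is at -3.64 and -0.97, PLAT at -2.56 and 0.28, and PROCR at -1.88 and -0.04.

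The comparison turned on SU8686. Its F3 mean of 11.02 and PLAT mean of 8.99 lay within the range of the sensitive lines, unlike those of MiaPaCa2 and Panc1. Without SU8686, the difference was -5.47 for F3 (adjusted p = 0.00601, limma) and -3.68 for PLAT (adjusted p = 0.0209), and 2 of 7 members and 14% of all genes were called, though MiaPaCa2 and Panc1 then share a slide with no sensitive line. Neither gene was detected in these 2 lines, so the sizes are set against background: as bounds, the sensitive lines were at least 30.2-fold higher in F3 and at least 9.53-fold higher in PLAT. Over every setting tried, the adjusted p ran from 0.00601 to 0.958 for F3 and from 0.0209 to 0.988 for PLAT. On slide 2 alone, SU8686 differed from Panc1005 by -0.97 in F3, -0.34 in PLAUR, -0.04 in PROCR, 0.10 in TFPI, 0.12 in THBD, 0.21 in PLAU and 0.28 in PLAT. With the slide as a block the fit rests on this pair, and no member passed (adjusted p from 0.958 to 0.996).

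Replicate 2 taken alone gave a further reading of the 6 labels. F3 was again undetected in MiaPaCa2 (5.44) and Panc1 (5.35), and so was PLAT (5.06 and 5.61), while both genes were detected on replicate 2 of the 4 other lines. EPCAM and CDH1 were detected on replicate 2 of MiaPaCa2 and Panc1, COL1A2 and COL3A1 were not, and COL1A1 read 8.0 and 8.1. The part of these markers in the levels of F3 and PLAT was not tested. The resistant minus sensitive difference of F3 on replicate 2 was -5.58 (adjusted p = 0.0719, limma), that of PLAUR -2.90 (adjusted p = 0.208) and that of PLAT -1.85 (adjusted p = 0.51). TFPI turned from 0.39 to -1.30 (adjusted p = 0.32) and PROCR shrank to -0.19 (adjusted p = 0.908). THBD went from -0.01 to -2.26 (adjusted p = 0.545), with the single bright array in Panc1005, and PLAU was at 0.08 (adjusted p = 0.964). No member was called, and 22 genes were called over the whole array. With all 3 replicates averaged, F3 was at -4.28, PLAT at -2.32, PLAUR at -1.46, PROCR at -1.32, THBD at -0.76, PLAU at 0.36 and TFPI at -0.17, again with 0 of 7 called.

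Replicate 2 was then set against replicates 1 and 3 of its own label, line by line, in a limma fit to the 18 arrays. The single replicate 2 array of a line was assumed to vary as replicates 1 and 3 do. Of 42 comparisons, 19 passed an adjusted p under 0.05 and a difference of at least 1: 2 of 7 members in Panc0403, 2 in Panc0504, 4 in Panc1005, 4 in SU8686, 4 in MiaPaCa2 and 3 in Panc1. The shares over all genes in the same lines were 17.9%, 22.2%, 28.1%, 27.9%, 24.4% and 25.1%. Every tested member was called in at least 1 line, and how many of all genes were was not counted. The calls include THBD in SU8686, which as a bound was only 1.40-fold lower, below the size for a call.

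**Figure D3:**
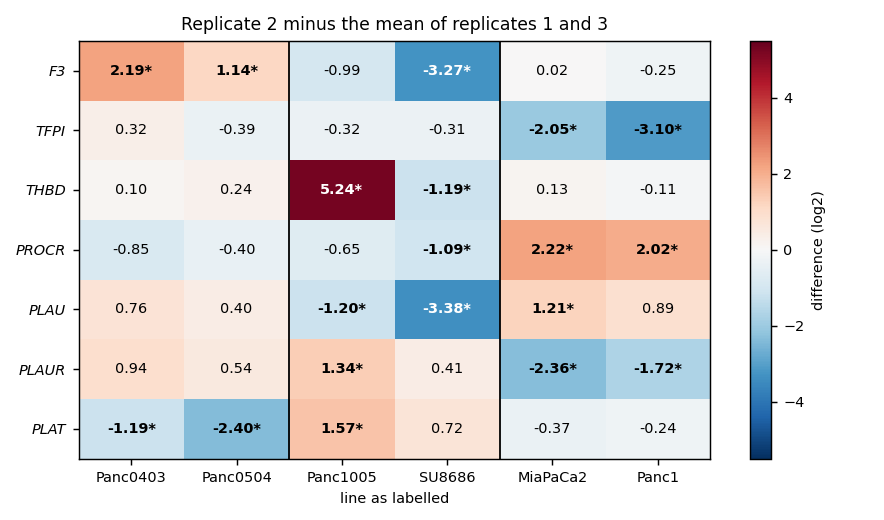
Log2 difference of replicate 2 from the mean of replicates 1 and 3 for each tested gene (rows) and labelled line (columns, with slides separated by vertical lines); red is higher and blue lower on replicate 2, and an asterisk marks a called difference. The values run from 5.24 for THBD in Panc1005 to -3.38 for PLAU in SU8686.

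On slide 1, F3 was higher on replicate 2 and PLAT lower. F3 rose to 12.46 in Panc0403, 2.19 ± 0.19 (SE) above replicates 1 and 3, and to 11.82 in Panc0504, 1.14 ± 0.19 above them (adjusted p = 6.3e-06 and 0.000602, limma). The second F3 probe was called in Panc0403 (1.70) but not in Panc0504 (0.97). PLAT read 7.62 in Panc0403 and 8.04 in Panc0504, differences of -1.19 ± 0.20 and -2.40 ± 0.20 (adjusted p = 0.000596 and 4.35e-06). The direction was therefore shared by both labels of the slide, and the 2 activators of plasminogen did not move together, since PLAU was 0.76 and 0.40 higher, below the size for a call. With its used probe PLAUR was 0.94 higher in Panc0403 and 0.54 higher in Panc0504, also below that size. Its other probes were called in Panc0403 (1.35 and 1.12) and not in Panc0504 (0.90 and 0.39).

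On slide 2, thrombomodulin gave the largest single difference among the members. THBD read 11.61 on replicate 2 of Panc1005 against 6.52 and 6.22 on replicates 1 and 3, 37.9-fold higher (5.24 ± 0.31, adjusted p = 3.2e-07, limma). In SU8686 it was undetected on replicate 2, at least 1.40-fold below the mean of the other arrays. Urokinase and tissue factor RNA were also far lower on replicate 2 of SU8686: PLAU read 10.58 against 13.91 and 13.99, 10.4-fold lower (adjusted p = 1.18e-08), and F3 read 7.75 against 10.93 and 11.12, 9.65-fold lower (adjusted p = 3.62e-07). The second F3 probe was undetected on replicate 2 of SU8686. In Panc1005, PLAU fell by 1.20 to 12.55, while PLAT was 2.97-fold higher at 10.28 and PLAUR 2.54-fold higher at 10.55. One PLAUR probe of 3, ILMN_1691508, showed no such gain in Panc1005 (0.03). PROCR was lower in SU8686, by 2.14-fold, to 7.50.

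Endothelial markers, which could accompany thrombomodulin, were read on the same arrays. CDH5 was 6.84 on replicate 2 of Panc1005 against 4.86 and 4.68 on replicates 1 and 3, and PECAM1 was 6.52 against 5.19 and 5.26. On replicate 2 of SU8686, PECAM1 was 10.07 and CDH5 6.67, with THBD undetected. Of 7 endothelial markers, 2 to 3 were detected on replicate 2 of the sensitive lines, at summed normalized intensities of 880 to 1327, and 1 on their replicates 1 and 3, at 373 to 594. On resistant lines, 0 to 3 were detected on replicate 2, at 248 to 1383, and 0 to 2 on replicates 1 and 3, at 222 to 327. ESAM was 9.93 on replicate 2 of Panc1005, against 7.48 and 7.51. VWF, KDR, TEK and CLDN5 were detected on none of the 18 arrays. The part of these markers in the THBD difference was not tested.

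On slide 3, TFPI was lower on replicate 2 and PROCR higher, in both lines. TFPI read 10.12 on replicate 2 of MiaPaCa2, 4.14-fold below replicates 1 and 3, and 9.81 on that of Panc1, 8.55-fold below them (adjusted p = 3.68e-07 and 2.04e-08, limma). PROCR went the other way, to 9.61 in MiaPaCa2 and 9.28 in Panc1, 4.67-fold and 4.07-fold higher (adjusted p = 4.89e-07 and 9.69e-07). These levels lay above every PROCR value of replicates 1 and 3 on slides 2 and 3. PLAU was 2.31-fold higher in MiaPaCa2, at 12.61, and in Panc1 0.89 higher at 13.40, below the size for a call. PLAUR fell by 2.36 in MiaPaCa2, where its used probe was undetected at 5.88, and by 1.72 in Panc1, to 6.83. Its other probes detected it on both arrays and differed less, by -0.34 and -0.86 in MiaPaCa2 and by -0.32 and -0.52 in Panc1, none of them called. Markers of cell type moved on the same arrays. EPCAM read 9.13 on replicate 2 of MiaPaCa2 and 9.10 on that of Panc1, against 4.87 to 5.37 on replicates 1 and 3, and CDH1 read 9.24 and 8.94, against 4.82 to 5.06. COL1A2 read 5.59 and 5.74, against 12.95 to 13.74, and COL3A1 5.22 and 5.40, against 11.03 to 11.14. COL1A1, from the same fibroblast list, went the other way, at 8.0 and 8.1 against 5.1 to 5.5. All 6 epithelial markers were detected on replicate 2 of each resistant line, at summed normalized intensities of 26223 to 68719. Their part in the differences was not tested.

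The probe of the TFPI beta transcript was undetected on replicate 2 of all 6 lines, at 4.95 to 5.88. The fall from replicates 1 and 3 was called in 4 lines by limma on single probes, where it was at least 3.38-fold in Panc1005, 2.85-fold in SU8686, 2.52-fold in Panc1 and 1.46-fold in Panc0504. Both probes of the main TFPI transcript were detected on those arrays.

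Whether the shift of replicate 2 differed between resistant and sensitive lines was tested by limma on the 6 line shifts. No member passed (adjusted p from 0.334 for PLAUR to 0.912 for PLAU). Over all genes 1 passed, and 1530 had an unadjusted p under 0.05.

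The members were not a single block across arrays. As a description over the 18 arrays, which share lines and slides, F3 correlated at 0.79 with PLAT and at 0.74 with PLAUR, PLAUR at 0.75 with PLAT, and TFPI at 0.64 with PLAUR. PLAU correlated at 0.18 with F3 and at -0.20 with its receptor PLAUR, and TFPI at -0.43 with PROCR. The genes whose levels were most like those of F3 were BIK (0.969), LAD1 (0.966) and TMEM216 (0.963), by Pearson's r over the 18 arrays. For PLAT they were SOX7 (0.978), ESRP1 (0.975), a splicing regulator of epithelial cells, and REPS2 (0.971). PROCR was most like DCPS (0.964), COX5A (0.940) and WNT7B (0.928), and PLAU most like CZIB (0.939), S100A3 (0.914) and SIRT5 (0.912). TFPI was most like FNTA (0.943), HEBP1 (0.922) and ALDH6A1 (0.914), and PLAUR most like DEDD2 (0.934), PTPN2 (0.920) and TGM2 (0.918). THBD was most like MKX (0.970), CIAO2B (0.916) and S100A2 (0.900), with a single array of THBD above 7.

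Further genes of the same pathways were read from 3 lists. Of 29 other coagulation genes, 9 were detected and tested, with 3 lower and 6 higher in resistant lines and a median difference of 0.17, beside 0.04 over all genes. Of 18 genes of fibrinolysis and plasminogen binding, 16 had a probe and 11 were tested, with 7 lower and 4 higher and a median of -0.38. Of 23 pericellular proteases and their inhibitors, 13 were tested, with 10 lower and 3 higher and a median of -1.89. None of these genes passed an adjusted p under 0.05 by limma, and 1, 3 and 5 of them passed unadjusted, with the 15.5% of all genes given above. With the log2 values of the authors' deposited matrix, the coagulation genes split into 4 lower and 5 higher and the pericellular genes into 11 and 2.

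**Figure D4:**
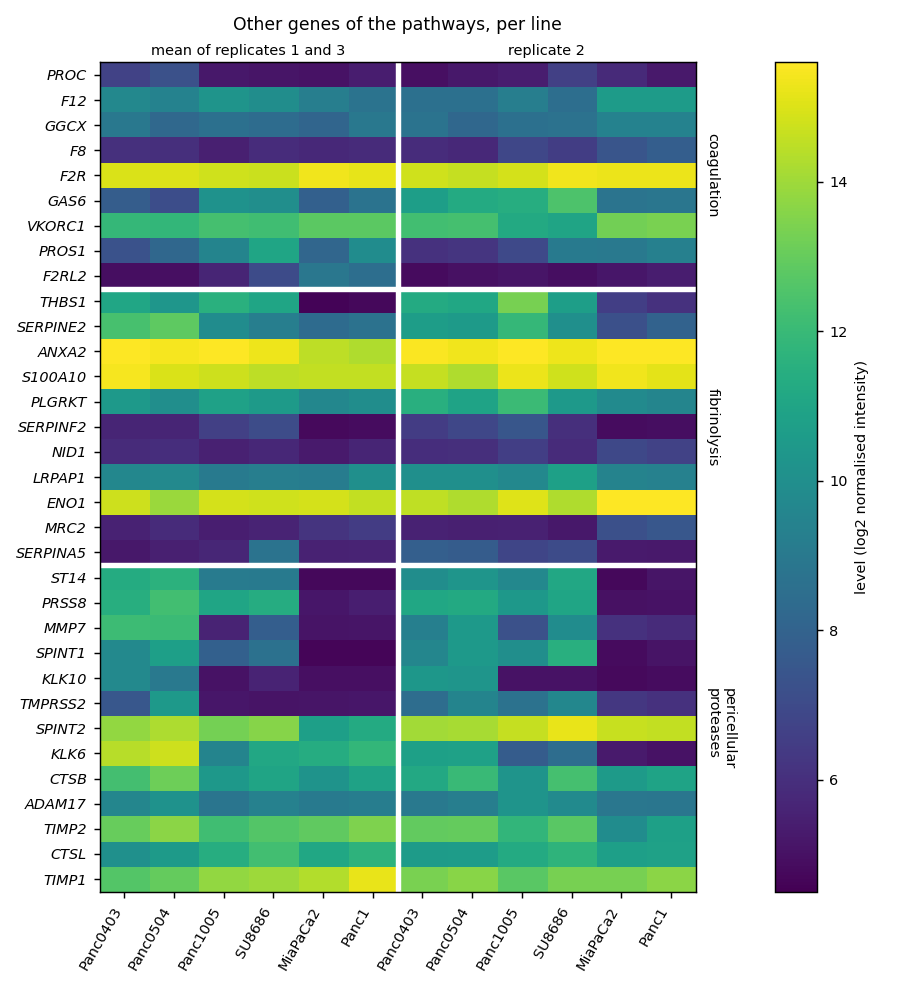
Level (log2 normalized intensity, colour) of the tested genes of the coagulation, fibrinolysis and pericellular protease lists, as the mean of replicates 1 and 3 (left block) and on replicate 2 (right block) of each line. THBS1, ST14, PRSS8 and SPINT1 are dark in MiaPaCa2 and Panc1 on replicates 1 and 3, and F2RL2 is lighter there and in SU8686 than in the sensitive lines.

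Among the coagulation genes, F2RL2, the thrombin receptor PAR3, differed most (2.96 ± 0.52 SE, adjusted p = 0.316, limma). Its mean was 8.89 in MiaPaCa2, 8.49 in Panc1 and 7.05 in SU8686, and it was undetected in the 3 sensitive lines and on all replicate 2 arrays. PROS1, protein S, was detected in all lines, from 7.29 in Panc0403 to 11.03 in SU8686. PROC, the protein C gene, was detected on replicates 1 and 3 of Panc0403 (6.70) and Panc0504 (7.25) and in no other line on these replicates. Those are also the lines with the highest level of the protein C receptor PROCR on replicates 1 and 3. On replicate 2, PROC was detected in SU8686 alone (6.59), where PROCR was lowest (7.50).

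Of the fibrinolysis genes, THBS1, the matrix protein thrombospondin 1, had means from 10.33 to 11.54 in the 4 other lines and was undetected in MiaPaCa2 (4.62) and Panc1 (4.72). SERPINE2, an inhibitor of thrombin and urokinase, had a difference of -2.93 ± 0.79 (adjusted p = 0.316, limma), with 12.39 in Panc0403, 12.83 in Panc0504 and 8.36 to 9.88 in the others. SERPINA5, the protein C inhibitor, was detected on replicates 1 and 3 of SU8686 alone (8.71).

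The pericellular proteases included membrane serine proteases of epithelia. ST14, matriptase, had means of 11.33 in Panc0403, 11.62 in Panc0504, 9.11 in Panc1005 and 9.07 in SU8686, and was undetected in MiaPaCa2 (4.75) and Panc1 (4.76). PRSS8, prostasin, read from 11.04 to 12.23 in the same 4 lines and was undetected in MiaPaCa2 (5.17) and Panc1 (5.42). MMP7, matrilysin, was high in Panc0403 (12.12) and Panc0504 (12.07), lower in SU8686 (7.83) and undetected in the other 3. By the rule used above for F3, PROCR and PLAT, 4 of 13 genes of this list, 1 of 11 of the fibrinolysis list and 0 of 9 of the coagulation list were lower in both MiaPaCa2 and Panc1, beside 5.51% of all genes.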

How the data were processed

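Bead intensity and detection p-value of 48107 probes on 18 arrays were taken from the deposited intensity table, per the file headers. The authors' deposited matrix of log2 values (47323 probes) served as an alternative. Image software is not given in the sources used here. Intensities were background corrected with negative controls inferred from detection p, offset 16, quantile normalized and log2 transformed (neqc, limma 3.58.1, R 4.3.3). The offset understates differences of dim genes. Detection meant p under 0.01; a gene needed 3 such arrays, and its brightest detected probe on average stood for it, giving 11600 genes. Symbols came from the platform annotation. Line means or arrays were tested with limma, with Benjamini-Hochberg adjustment over all genes (and pairs or lines) at 0.05; calls between arrays also needed a log2 difference of at least 1. "At least" folds use each array's lowest detected signal. The fits were tested on simulated data that held noise between arrays but no spread between lines. That simulation cannot speak for the comparison of responses, where the line is the replicate. The number of arrays limits precision.

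Members, lists and rules were chosen with earlier results of these data known. Named were all 9 members, the 3 list genes of largest difference per list, and the 3 genes most correlated with each tested member. Replicate numbers 1 and 3 did not pair samples: their deviations correlated between lines at -0.10 to 0.11, with 1 of 15 line pairs above 0.1. Shifts of replicate 2 correlated at 0.76 to 0.94 between the lines of a slide and at -0.08 to 0.23 across slides (4 of 12 pairs above 0.1). Promoter sequences are RefSeq's (GRCh38.p14), and those of 7 members were read. Windows on chromosome 8, which holds PLAT, were left out of that reading. Alternatives covered background, offset, scaling, filter, probes, replicates, lines and blocks.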

Additional observations from a re-analysis of the deposited data

How the results depend on the processing

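The direction of the response difference held under every setting tried for F3, PROCR and PLAUR. That of THBD, near 0, turned to 0.0114 with an offset of 50, to 0.13 without replicate 3 and to 0.12 with the slide as a block, was -2.26 on replicate 2 only, and ran from -0.59 to 0.52 as lines or replicates were left out, at 0.52 without Panc1005, 0.29 without MiaPaCa2 and 0.28 without Panc1. TFPI turned to -0.17 with all 3 replicates and to -1.30 on replicate 2 only. PLAU turned to -0.17 without SU8686 (range -0.17 to 1.31 over the left-out lines and replicates), and PLAT to 0.28 with the slide as a block. The cause was not tested. The count of members called between responses ran from 0 to 2, with 2 only without SU8686. Line pairs called fell from 56 to 24 with all 3 replicates, where replicate 2 enters the spread, and over all genes from 24.8% to 9.32%; leaving out single arrays gave 55 to 57, and for replicate 2 from 18 to 20. The replicate block left the 56 calls of line pairs as they were and no member called between responses. That block covers replicates 1 and 3, whose numbers showed no pairing; replicate 2 went with replicate 2 of the other line on its slide and is not in that fit. A weakly lit probe such as those of THBD and TFPI2 has few arrays above background, which limits both.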
